A study of Rattus norvegicus with 23 samples.

Results

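Gastrocnemius RNA of male Wistar rats was compared between a high fat, high sucrose (HFHS) diet and standard chow. The rats are the 12 males of the 23 rats sequenced, chosen by the diet and sex codes of their columns, with 6 on the HFHS diet (rats 101 to 106) and 6 on chow (rats 111, 112, 114, 115, 116 and 119). The HFHS diet held 39% fat, 41% carbohydrate and 20% protein, and sucrose made up 45% of its weight. Chow held 17% fat, 60% carbohydrate and 23% protein, with sucrose at 5% of its weight. Both diets began at 4 weeks of age and lasted 14 weeks, at a housing temperature of 30 °C, and food was withdrawn for 2 h before death. Each library came from the muscle of 1 rat, and the study describes no operation in males. The females, used here only to compare the sexes, had their ovaries removed and estradiol replaced through the drinking water. The study also describes sham-operated females, and the operation of each sequenced female is not given. For each male the title, the treatment label and the column code gave the same diet. In the study's printed heat maps, however, the gene Cyp1a1 is drawn high in the males headed chow, the opposite of the deposited counts under these labels. The deposited diets were used, and every direction below rests on them.

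Gastrocnemius is a mixed limb muscle in which fast fibres, which rely largely on glycolysis, lie beside slow oxidative fibres, with capillaries, nerve, connective tissue and fat between them. When fat supply is high, muscle takes up fatty acids, stores them in lipid droplets and oxidizes them in mitochondria, and the fibre genes for these steps are known to respond to fatty acids through the PPAR receptors. Capillary endothelium, which passes the fatty acids on to the fibre, is patterned by Notch signaling. Obesity from such diets is also known for inflammatory signaling and for matrix deposition between the fibres.

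Total counts per rat were 29645530 to 50170692 on the HFHS diet and 32023954 to 39261325 on chow, and no pair of libraries was identical. Levels are given as CPM, that is, counts relative to a library's size after TMM scaling. The muscle actin gene Acta1 was at 60500 to 73700 CPM on the HFHS diet and at 65400 to 78700 CPM on chow, so all 12 libraries were muscle. The main spread among the males went with the level of slow fibre genes. The first principal component held 35.2% of the variance and had a correlation of -0.93 with the mean of 6 slow fibre genes over the 12 rats, which is a description only. Myh7, the slow myosin heavy chain, was at 2280 to 7510 CPM (median 4290) on the HFHS diet and at 265 to 11000 CPM (median 4770) on chow, and its groups overlapped. Rat 101 on the HFHS diet and rat 111 on chow lay at the ends of that component, so counts are also given without both. Of 30 hepatocyte markers 9 had enough counts to be tested, and 5 of them were lower on the HFHS diet at an unadjusted p under 0.05 (3.44% of all genes tested were), with 1 to 5 when 1 rat was left out and 0 without both end rats. Albumin (Alb), the defining one, was at 0.323 to 5.12 CPM on the HFHS diet and at 0.769 to 15.5 CPM on chow, highest in chow rats 115 and 111. Myelin genes of nerve also differed between rats. The summed nerve list lay at 116 to 802 CPM on the HFHS diet and at 115 to 436 CPM on chow, with rats 101 and 102 the highest.

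**Figure D1:**
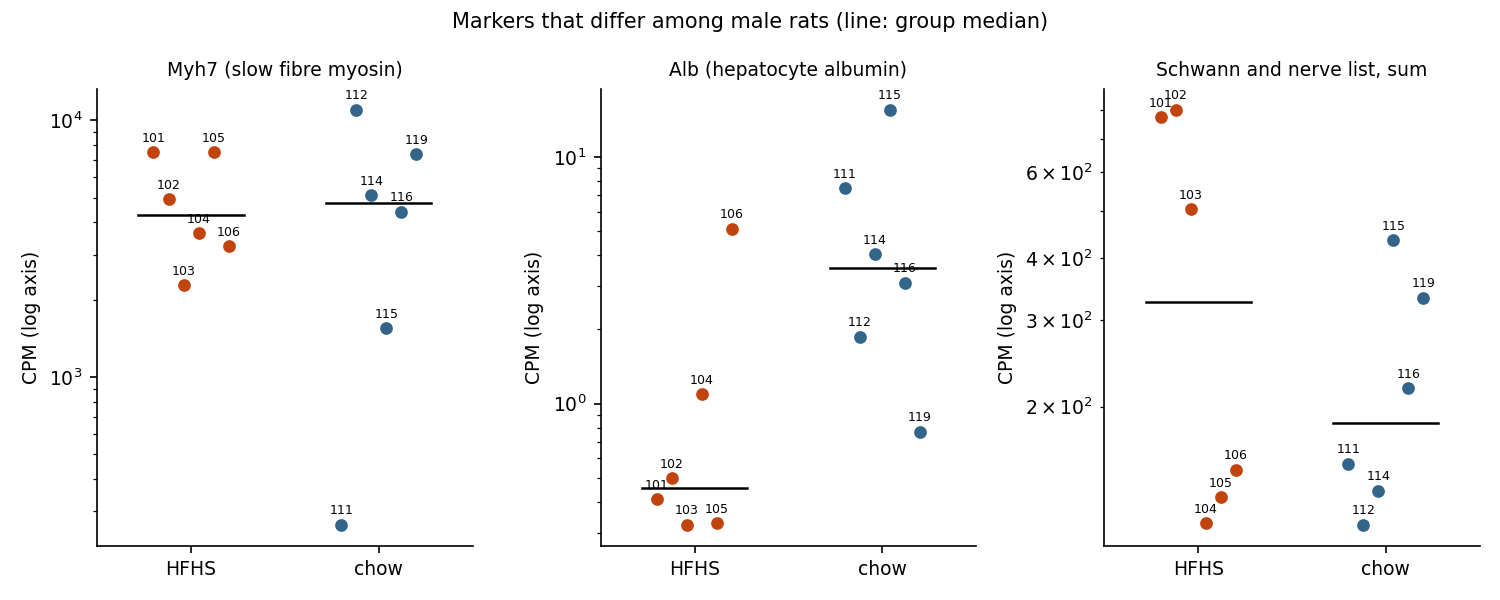
Level in each male rat, numbered, of Myh7, of Alb and of the summed nerve list, in CPM on log axes, with HFHS rats at the left, chow rats at the right and a line at each group median. Chow rat 111 had the lowest Myh7 (265 CPM) and chow rat 115 the highest Alb (15.5 CPM), and 3 HFHS rats (101, 102, 103) stood above all chow rats in the nerve list.

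The first question was which genes differed between the diets in males. In the quasi-likelihood test of edgeR on the 12 males, 0 of 12745 genes passed an adjusted p of 0.05 (0%), and the smallest adjusted p was 0.0809. At an unadjusted p under 0.05, the HFHS diet had 702 higher genes (5.51%) and 438 lower ones (3.44%). These 2 shares are the background for every list of genes below in the fit of the 12 males. Fits that leave rats out or add the slow fibre covariate have shares of their own, which are not given here. DESeq2, the tool of the study, called 62 genes higher (0.464%) and 29 lower (0.217%) of 13362 on the same rats, and limma-voom called 5 (Afdn, Ggta1, Dll4, Mlycd and Pim1, all higher). Of the 91 DESeq2 calls, 90 were tested in edgeR and all 90 were at an unadjusted p under 0.05 there. The groups did not overlap in 45 of the 91, against 82 of 12745 genes tested (0.643%), though DESeq2 calls were chosen on the same counts. Leaving out 1 rat at a time, DESeq2 called 38 to 103 genes higher and 12 to 55 lower, and 34 of the 91 were called every time. The highest counts of both came without chow rat 112. With the slow fibre mean as a covariate 79 of the 91 stayed called, without both end rats 42 did, and in a model of all 23 rats 24 did. The main test was that of edgeR, with DESeq2 as an alternative that called more genes. A gene is said below to have risen or fallen only where DESeq2 called it, at the adjusted p given. None of these genes passed in the main edgeR test, also where its adjusted p is not repeated. The log2 difference and SE of a gene are those of edgeR unless stated.

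The genes with the smallest edgeR p were Afdn, Pim1 and S1pr4, named after their values were seen. Afdn encodes afadin, which ties nectins of cell junctions to actin. It was at 12.5 to 14.5 CPM (median 12.8) on the HFHS diet and at 9.26 to 10.3 CPM (median 9.95) on chow. The groups did not overlap, and Afdn rose by a log2 of 0.40 ± 0.06 SE (adjusted p = 1.97e-05 in DESeq2 and 0.0809 in edgeR). The kinase gene Pim1 was at 7.10 to 10.1 CPM on the HFHS diet and at 4.13 to 5.83 CPM on chow, also without overlap (log2 0.71 ± 0.11 SE, adjusted p = 1.97e-05 in DESeq2). S1pr4, a receptor for sphingosine 1-phosphate found mainly on blood cells, was at 0.421 to 0.903 CPM against 0.196 to 0.307 CPM on chow (adjusted p = 0.00145 in DESeq2). Afdn and Pim1 were called by DESeq2 whichever rat was left out, and S1pr4 in each of the 11 such fits that gave it an adjusted p.

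**Figure D2:**
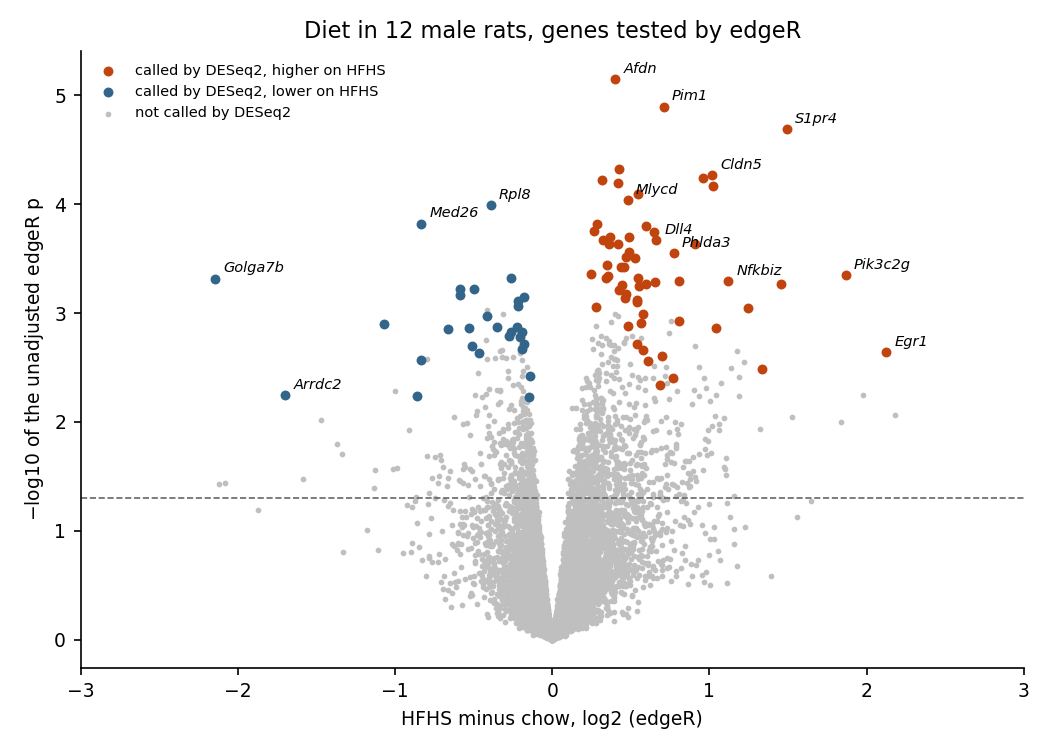
Log2 difference of HFHS minus chow in the 12 males (x axis) against the negative log10 of the unadjusted edgeR p (y axis), 1 point for each of 12745 genes, with DESeq2 calls in red (higher on HFHS) and blue (lower) and a dashed line at 0.05. Cyp1a1 is missing because it did not pass edgeR's filter on low counts. The called genes lie at the top of both arms, with Afdn highest and Golga7b and Egr1 far to either side.

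Among the genes DESeq2 called, the largest log2 difference was that of Cyp1a1, which encodes a cytochrome P450 that oxidizes aromatic compounds and is the best known target of the aryl hydrocarbon receptor. It lies on chromosome 8 (rn6, 62472095 to 62478147). Its raw counts were 57, 45, 13, 6, 75 and 21 in HFHS rats 101 to 106, and 0 or 1 in each chow rat. In CPM it was at 0.139 to 2.24 (median 0.772) on the HFHS diet and at 0 to 0.0342 (median 0.0261) on chow. Every HFHS rat was above every chow rat, but the HFHS level itself was low and spread widely. DESeq2 gave a log2 of 5.65 ± 0.90 SE with an adjusted p of 4.25e-06, and kept the call in each of the 11 fits without 1 rat that gave it an adjusted p. With 0 or 1 counts in each chow rat the size of this ratio is poorly set. The filter of edgeR by group removed the gene, and with a lower filter, a mean count above 0.1, it was the single gene that passed there (adjusted p = 0.0476). The receptor gene Ahr was at 6.20 to 7.48 CPM on the HFHS diet and at 4.19 to 6.43 CPM on chow (log2 0.38 ± 0.10 SE, adjusted p = 0.272 in edgeR). Por, the reductase that passes electrons to P450 enzymes, was at 31.7 to 42.0 CPM against 29.2 to 35.4 CPM on chow (log2 0.23 ± 0.07 SE, adjusted p = 0.320). Of the 8 tested genes of this list, 3 were higher at an unadjusted p under 0.05 (Ahr, Por and Aldh3a1) and 0 lower, with a median log2 of 0.09 against 0.00 over all genes tested.

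Of the endothelial markers tested, Cldn5 had the largest difference. Its product claudin-5 seals the tight junctions of endothelium. Cldn5 was at 23.1 to 47.6 CPM (median 36.5) on the HFHS diet and at 15.6 to 19.7 CPM (median 17.3) on chow. The groups did not overlap, and the chow rats lay close together. It rose by a log2 of 1.02 ± 0.17 SE (adjusted p = 4.25e-06 in DESeq2 and 0.0961 in edgeR). The gene (chromosome 11, 86356294 to 86357718) lies inside the span of Cdc45, a DNA replication gene on the other strand, whose counts rose by 0.96 ± 0.16 SE and had a correlation of 0.999 with those of Cldn5 over the 12 rats. Raw counts were close as well, at 519 to 2061 for Cldn5 and at 589 to 2167 for Cdc45. Whether the counting used the strand is not given in the sources used here, so reads of the 2 genes cannot be told apart. Their 2 calls are therefore not separate support for each other. Of 21 endothelial markers tested, 7 were higher at an unadjusted p under 0.05 and 0 lower, with a median log2 of 0.10. After Cldn5, the smallest p belonged to Nos3, the endothelial nitric oxide synthase (log2 0.29 ± 0.08 SE), Egfl7, a secreted vessel protein (0.31 ± 0.10 SE), and Tie1, an endothelial receptor kinase (0.18 ± 0.06 SE), and DESeq2 called none of these 3. Other defining markers had smaller differences, with a log2 of 0.10 for Erg, 0.08 for Vwf and 0.06 for Emcn. The summed list was at 1240 to 1510 CPM on the HFHS diet and at 1080 to 1390 CPM on chow. In bulk muscle, a larger share of endothelial cells and more RNA per cell cannot be told apart. Of 15 tested junction genes, 3 were higher (Cldn5, Jam2 and Cdh5) and 0 lower, with 5 higher without HFHS rat 104 or chow rat 112 or 114 and 1 without both end rats.

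Genes of the Notch pathway were higher more often than the background. Of 20 tested, 10 were higher at an unadjusted p under 0.05 and 0 lower, against the 5.51% over all genes, with a median log2 of 0.16. The count was 7 to 12 when 1 rat was left out, 10 with the slow fibre covariate and 7 without both end rats. Dll4, the ligand that marks arterial and sprouting endothelium, was at 33.9 to 41.1 CPM on the HFHS diet. On chow it was at 18.2 to 35.2 CPM, and chow rat 112, at 35.2 CPM, was the single chow rat inside the HFHS range. Dll4 rose by 0.66 ± 0.13 SE (adjusted p = 0.00138 in DESeq2). Without rat 112 it passed in edgeR as well (adjusted p = 0.000178), but in no other edgeR fit that left out 1 rat. Leaving out the chow rat nearest the HFHS group favours a pass, so this adds no separate support. The ligand Jag1 was at 13.2 to 15.4 CPM against 7.52 to 14.4 CPM on chow (log2 0.46 ± 0.14 SE). Mfng, a glycosyltransferase that tunes how receptors answer their ligands, had a log2 of 0.36 ± 0.10 SE, and the receptor Notch4 of 0.22 ± 0.07 SE. Notch4 overlaps the complement gene C4b on the other strand. Among targets, Nrarp, a feedback inhibitor of the pathway, was at 17.4 to 31.8 CPM against 11.4 to 22.3 CPM on chow and rose by 0.69 ± 0.20 SE (adjusted p = 0.0425 in DESeq2, lost when any 1 of 8 rats was left out). The repressor gene Hes1 was at 11.6 to 23.9 CPM against 6.20 to 16.1 CPM on chow (log2 0.75 ± 0.25 SE, adjusted p = 0.421 in edgeR), with overlap. The transcription factor genes Tal1 and Ets1, both active in endothelium and named after their values were seen, rose by 0.53 ± 0.11 SE and 0.36 ± 0.08 SE (adjusted p = 0.00837 and 0.0178 in DESeq2, the call of Ets1 being lost when any 1 of 6 rats was left out). Tal1 was at 6.55 to 8.32 CPM against 3.99 to 6.27 CPM on chow, without overlap.

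The Hes1 promoter is shown because Hes1 is the classical Notch target, and RBPJ, the DNA-binding partner of Notch, binds TGGGAA. The sequence is that of RefSeq (build GRCr8, chr11:84212996-84213295, minus strand), from 250 bases before the gene's start to 50 after it, with TGGGAA in capitals. It holds TGGGAA 2 times on the shown strand, at 123 and 109 bases before the start. TGGGAA on either strand is common, in 25.7% of 33469 promoters of this length, and in 8 of the 18 Notch list members with a promoter in the table.
Hes1: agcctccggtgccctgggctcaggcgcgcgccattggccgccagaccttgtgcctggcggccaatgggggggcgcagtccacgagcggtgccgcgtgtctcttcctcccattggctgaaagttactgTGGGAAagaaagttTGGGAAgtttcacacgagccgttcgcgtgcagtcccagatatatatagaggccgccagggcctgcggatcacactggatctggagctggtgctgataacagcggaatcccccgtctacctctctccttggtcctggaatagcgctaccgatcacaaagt

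Immediate early genes, which switch on within minutes of a stimulus and need no new protein, gave several of the larger differences. Of 26 tested, 6 were higher at an unadjusted p under 0.05 and 0 lower, with a median log2 of 0.23. Egr1, a zinc finger transcription factor, was at 90.9 to 168 CPM (median 140.0) on the HFHS diet and at 10.5 to 85.8 CPM (median 18.7) on chow. The groups did not overlap, but chow rat 112 at 85.8 CPM came close to the lowest HFHS rat and the other chow rats were at 10.5 to 38.9 CPM. Egr1 rose by 2.12 ± 0.53 SE (adjusted p = 0.0110 in DESeq2, lost without chow rat 116, and 0.262 in edgeR). With rat 112, the chow rat nearest the HFHS group, left out, which favours a pass, Egr1 passed in edgeR at 2.77 (adjusted p = 0.0454). Its relative Egr2 was at 1.84 to 6.40 CPM against 0.951 to 3.47 CPM on chow and rose by 1.33 ± 0.37 SE (adjusted p = 0.0178 in DESeq2, lost when any 1 of 7 rats was left out). Egr2 is also a Schwann cell gene. All 12 nerve markers had a positive log2, with a median of 0.72, and Egr2 was the 1 of them at an unadjusted p under 0.05. The part of nerve in the Egr2 difference was not tested. Junb, a subunit of the AP-1 factor, was at 20.2 to 58.3 CPM against 10.8 to 26.2 CPM on chow and rose by 1.24 ± 0.28 SE (adjusted p = 0.00655 in DESeq2), called whichever rat was left out. Egr3 was at 5.58 to 23.7 CPM against 0.991 to 6.62 CPM on chow (log2 1.98 ± 0.57 SE, adjusted p = 0.0647 in DESeq2). Dusp1, a phosphatase that shuts off MAP kinases, and Cyr61, a matrix protein, had log2 differences of 0.45 and 0.90.

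Promoters of Egr1 and Egr2 are shown because serum response factor, known to drive these genes, binds the CArG box. Both are RefSeq sequences of build GRCr8 over the same window, with CArG boxes in capitals, for Egr1 chr18:26736828-26737127 (plus strand) and for Egr2 chr20:21054392-21054691 (minus strand). Egr1 holds 2 boxes, at 105 and 83 bases before the start, and Egr2 holds 1, at 83 bases. Each box reads as a match on both strands. A box lies in 1.64% of all 33469 promoters, and in 4 of the 19 immediate early list members in the table (Egr1, Egr2, Klf6 and Zfp36). Junb and Dusp1 have none in this window, although Junb rose.
Egr1: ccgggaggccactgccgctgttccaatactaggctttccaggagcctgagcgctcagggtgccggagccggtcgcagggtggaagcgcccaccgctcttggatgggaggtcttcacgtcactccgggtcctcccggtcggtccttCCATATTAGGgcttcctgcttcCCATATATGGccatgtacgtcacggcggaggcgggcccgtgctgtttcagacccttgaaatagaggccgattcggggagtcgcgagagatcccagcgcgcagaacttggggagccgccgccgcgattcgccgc
Egr2: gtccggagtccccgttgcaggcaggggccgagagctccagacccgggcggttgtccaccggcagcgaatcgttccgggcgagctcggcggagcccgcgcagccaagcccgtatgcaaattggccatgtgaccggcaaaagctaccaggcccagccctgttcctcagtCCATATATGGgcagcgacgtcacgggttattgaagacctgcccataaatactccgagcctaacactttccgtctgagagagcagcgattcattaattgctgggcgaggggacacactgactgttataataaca

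**Figure D3:**
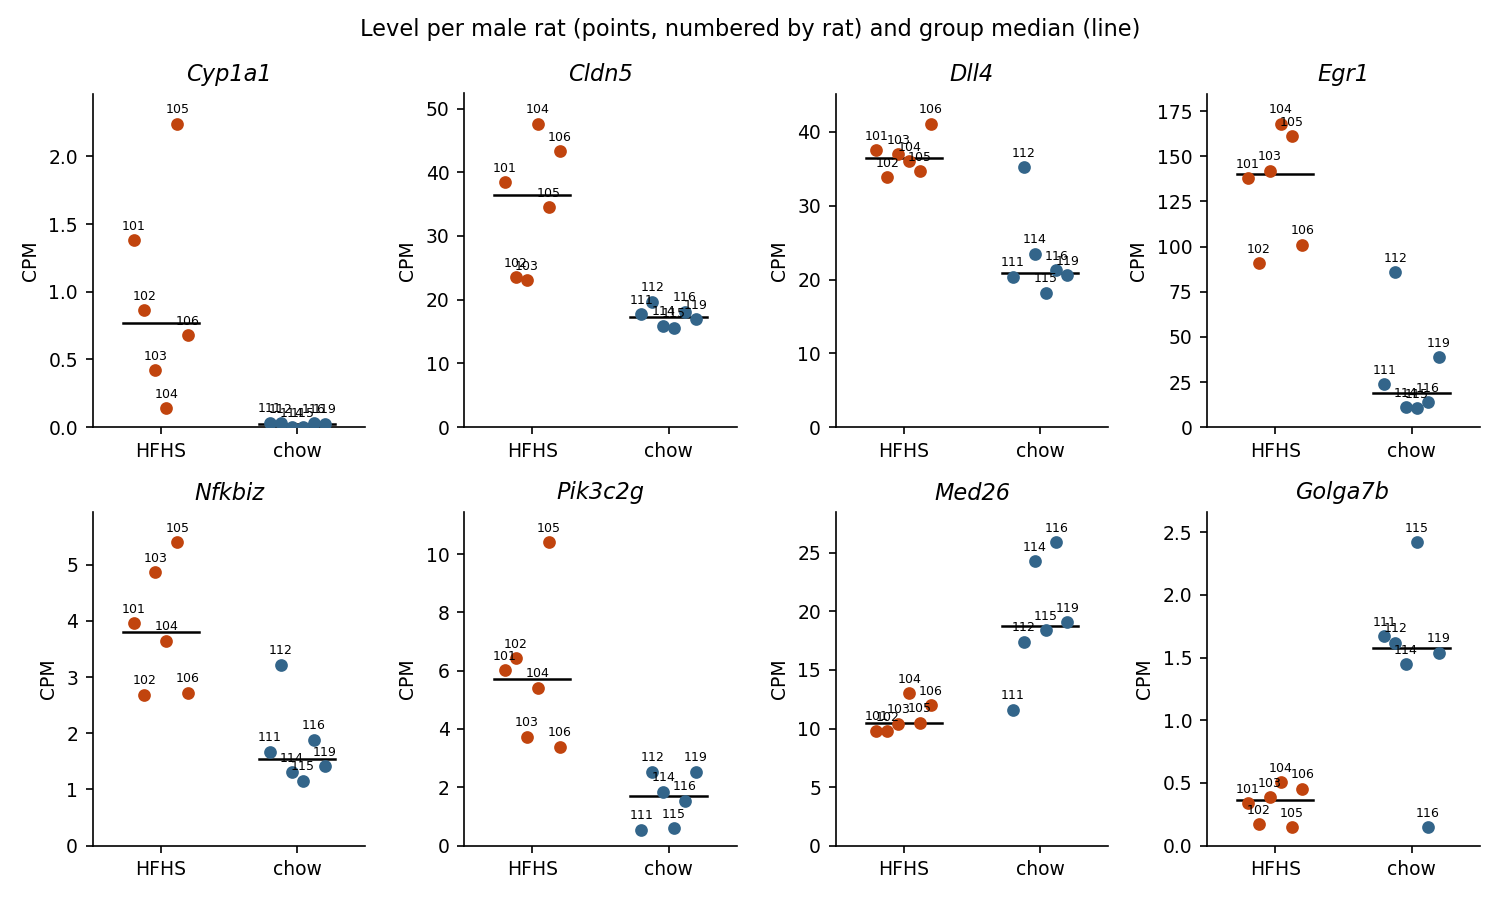
Level in CPM (linear axes from 0) of 8 genes in each male rat, with HFHS at the left and chow at the right, points numbered by rat and a line at the median. Chow rat 112 lay inside or next to the HFHS range for Dll4 (35.2 CPM), Egr1 (85.8 CPM) and Nfkbiz (3.22 CPM) but not for Cldn5 or Golga7b.

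Chow rat 112 was near the HFHS rats in several genes of these groups. Among the 62 genes that rose, it was the highest chow rat in 24 (38.7%), against 2582 of 12745 genes tested (20.3%). It had the highest Myh7 of all males (11000 CPM), the highest level of Car3, a carbonic anhydrase of slow fibres and fat (5650 CPM against 970 to 3920 CPM in the other chow rats), and the highest keratinocyte sum (23.7 CPM against 4.35 to 7.05 CPM), mostly from Krt5 at 14.6 CPM. The part of these markers in its Egr1 and Dll4 levels was not tested. Without this rat, edgeR called 10 genes, all higher (Dll4, Rgs3, Ets1, Mlycd, Nfkbiz, Pim1, Afdn, Card10, Cyp1a1 and Egr1). The rat was singled out after its values were seen, so these calls are no separate support.

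Of 26 tested NF-kB subunits, regulators and targets, 6 were higher at an unadjusted p under 0.05 and 1 lower, with a median log2 of 0.10. Nfkbiz, an inducible nuclear regulator of NF-kB target genes, was at 2.69 to 5.40 CPM against 1.16 to 3.22 CPM on chow, with only rat 112 reaching into the HFHS range. It rose by 1.12 ± 0.25 SE (adjusted p = 0.00583 in DESeq2). Ccl2, the chemokine that draws in monocytes, was at 0.870 to 1.75 CPM against 0.193 to 0.962 CPM on chow and rose by 1.45 ± 0.33 SE (adjusted p = 0.00837 in DESeq2). Its raw counts were low, at 36 to 70 on the HFHS diet and at 7 to 35 on chow. Icam1, an adhesion molecule for leukocytes, and the interleukin-1 receptor gene Il1r1 had log2 differences of 0.37 ± 0.13 SE and 0.30 ± 0.11 SE. The inhibitor gene Nfkbia, the 1 lower gene, was not called, at 23.1 to 33.9 CPM against 24.3 to 60.3 CPM on chow (log2 -0.52 ± 0.21 SE, adjusted p = 0.503 in edgeR). Macrophage markers had 0 of 17 at an unadjusted edgeR p under 0.05, with 0 called by DESeq2. Of the 17, however, 14 had a positive log2, with a median of 0.18. Their sum was at 111 to 156 CPM on the HFHS diet and at 96.4 to 136 CPM on chow.

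Interferon response genes leaned to the HFHS side as a group. Of 34 tested, 33 had a positive log2, 12 were higher at an unadjusted p under 0.05 and 0 lower, and the median log2 was 0.37 against 0.00 over all genes. The count was 8 to 15 when 1 rat was left out, lowest without HFHS rat 101, and 11 without both end rats. Ifit3, an antiviral RNA-binding protein, was at 3.70 to 8.99 CPM (median 5.26) against 1.29 to 4.02 CPM (median 2.88) on chow, highest in rat 101, with overlap. It rose by 1.04 ± 0.26 SE (adjusted p = 0.0110 in DESeq2, lost without rat 101). Ifit2 was at 17.9 to 29.2 CPM against 10.7 to 23.4 CPM on chow and rose by 0.70 ± 0.18 SE. Gbp2, a GTPase induced by interferon gamma, was at 7.44 to 13.0 CPM against 4.74 to 7.15 CPM on chow, without overlap, and rose by 0.56 ± 0.14 SE. The DESeq2 calls of Ifit2 (adjusted p = 0.0200) and Gbp2 (0.0370) were lost when any 1 of 7 and of 8 rats was left out. Ifi44l had a log2 of 0.73 ± 0.21 SE. Irf7, a master regulator of the response, was at 8.95 to 35.6 CPM against 9.91 to 30.2 CPM on chow (log2 0.40 ± 0.40 SE).

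Of 21 collagen genes tested, 20 had a positive log2, 14 were higher at an unadjusted p under 0.05 and 0 lower, with a median log2 of 0.28. The count was 11 to 16 when 1 rat was left out, 15 with the slow fibre covariate and 12 without both end rats. Col5a1, whose chain helps to set the width of collagen fibrils, was at 36.2 to 46.8 CPM (median 42.3) on the HFHS diet and at 23.5 to 35.6 CPM (median 31.5) on chow, without overlap. It rose by 0.44 ± 0.10 SE (adjusted p = 0.0110 in DESeq2, lost without HFHS rat 104 or chow rat 116). Its partner Col5a2 rose by 0.28 ± 0.07 SE (adjusted p = 0.0387 in DESeq2, lost without any 1 of 9 rats). The fibrillar gene Col3a1 was at 344 to 504 CPM against 277 to 400 CPM on chow (log2 0.41 ± 0.11 SE), and the basement membrane gene Col4a2 at 122 to 175 CPM against 94.1 to 131 CPM (log2 0.39 ± 0.11 SE). Col1a1 spread most, at 254 to 900 CPM, highest in rat 103, against 127 to 288 CPM on chow (log2 1.06 ± 0.34 SE). Of 34 genes of TGF-beta signaling and matrix regulation, 8 were higher and 1 (Smad7, an inhibitor of TGF-beta signaling) lower. Those with the smallest p were Sparc, a collagen-binding protein (log2 0.36 ± 0.10 SE), Loxl1, an elastin cross-linker (0.38 ± 0.10 SE), Fbn1, fibrillin-1 (0.31 ± 0.09 SE), and Fn1, fibronectin (0.39 ± 0.13 SE), and DESeq2 called none of the list. Of 14 fibroblast markers, 7 were higher and 0 lower (3 to 9 when 1 rat was left out, fewest without rat 106), which include Col1a1 and Col3a1 as well as Thy1 (log2 0.59 ± 0.20 SE) and Pdgfra. Their sum was at 1750 to 2690 CPM on the HFHS diet, highest in rats 103 and 106, and at 1570 to 1840 CPM on chow. Whether the share of fibroblasts accounts for the collagens was not tested.

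**Figure D4:**
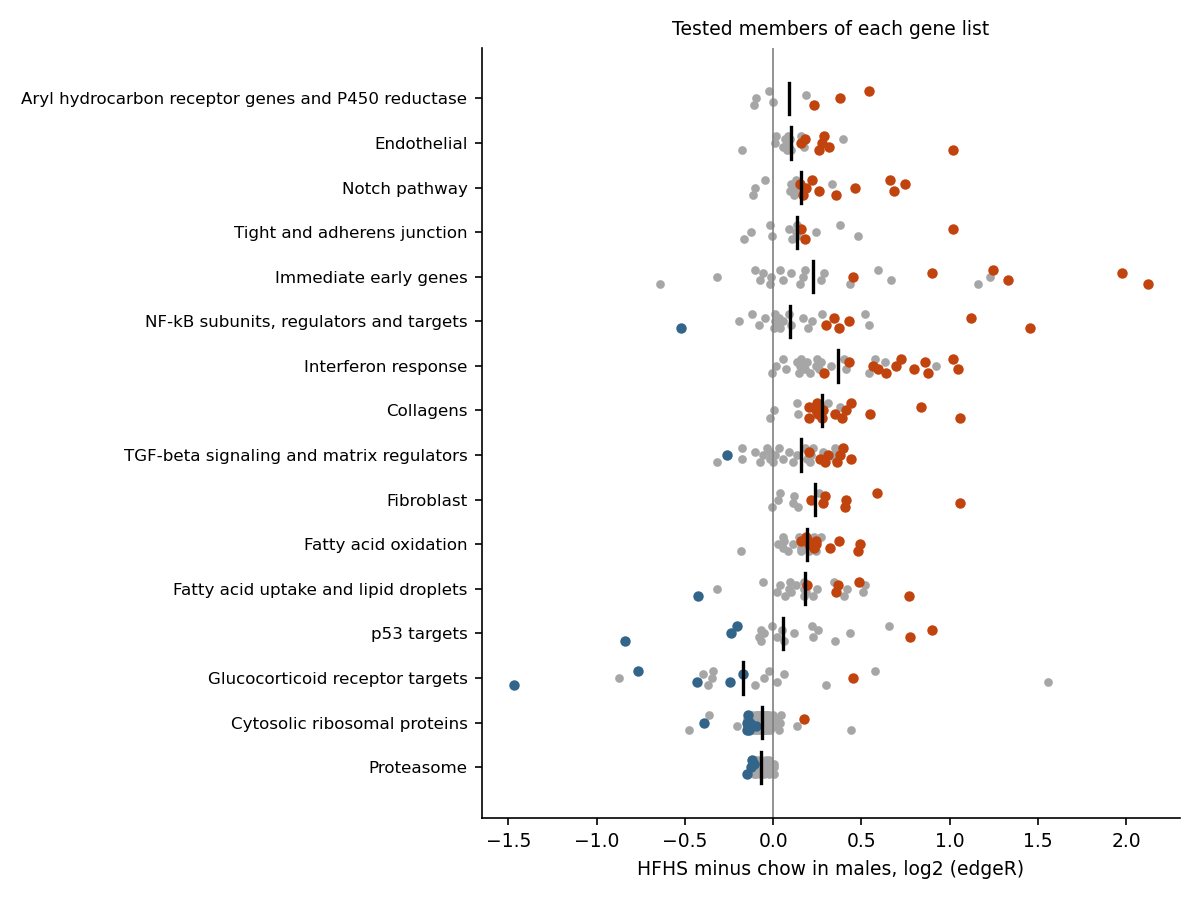
Log2 difference of HFHS minus chow in males (x axis) for each tested member of 16 gene lists (rows), coloured where the unadjusted edgeR p was under 0.05 (red higher, blue lower), with a black line at each list's median. Collagens (median 0.28) and interferon genes (0.37) lie mostly to the right of 0, while proteasome genes (-0.07) lie just to the left.

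Genes that burn fat were modestly higher. Of 27 tested genes of fatty acid oxidation, 26 had a positive log2, 11 were higher at an unadjusted p under 0.05 and 0 lower, and the median log2 was 0.19. This count depended on the rats, with 18 without chow rat 112, 5 to 7 without HFHS rat 101, 103 or 105 or chow rat 111, 115 or 116, 4 without both end rats and 15 with the slow fibre covariate. Mlycd, malonyl-CoA decarboxylase, which removes the inhibitor of mitochondrial fatty acid entry, was at 103 to 127 CPM (median 119) on the HFHS diet and at 70.2 to 104 CPM (median 81.7) on chow. Only chow rat 112 reached the HFHS range. Mlycd rose by 0.48 ± 0.09 SE (adjusted p = 0.00138 in DESeq2), whichever rat was left out. Cpt1a, a carnitine palmitoyltransferase of that entry step, was at 7.29 to 13.0 CPM against 5.92 to 9.87 CPM on chow (log2 0.49 ± 0.17 SE). The acyl-CoA synthetase Acsl1 was at 444 to 602 CPM against 293 to 542 CPM (log2 0.37 ± 0.13 SE), and Decr1, which handles unsaturated fatty acids, had a log2 of 0.32 ± 0.11 SE. Cpt1b, the isoform of muscle, had 0.16 ± 0.10 SE, and Pdk4, the kinase that holds back glucose oxidation, was at 212 to 637 CPM against 204 to 388 CPM on chow (log2 0.58 ± 0.27 SE, adjusted p = 0.570 in edgeR).

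Of 26 tested genes of fatty acid uptake and lipid droplets, 5 were higher at an unadjusted p under 0.05 and 1 lower, with a median log2 of 0.18. The higher count was 4 to 8 when 1 rat was left out, with 8 without chow rat 112 or 119. Plin5, a droplet coat protein that links droplets to mitochondria, was at 21.7 to 41.7 CPM (median 31.2) against 10.1 to 26.3 CPM (median 17.9) on chow. It rose by 0.77 ± 0.22 SE (adjusted p = 0.0217 in DESeq2, lost without any 1 of 6 rats). Gpam, the first enzyme of glycerolipid synthesis, was at 30.8 to 45.5 CPM against 19.5 to 35.5 CPM (log2 0.49 ± 0.14 SE), and the lipase gene Lipe at 37.4 to 56.3 CPM against 28.6 to 43.8 CPM (0.35 ± 0.12 SE). An unnamed gene on the other strand of Lipe had a correlation of 0.962 with it over the rats. Pnpla3, a lipase-like droplet protein, was lower, at 2.82 to 3.61 CPM against 3.19 to 5.81 CPM on chow (log2 -0.42 ± 0.13 SE). Fitm2, a protein of droplet formation named after its values were seen, was at 48.9 to 68.2 CPM against 35.8 to 48.9 CPM on chow and rose by 0.46 ± 0.10 SE (adjusted p = 0.0102 in DESeq2). Lpl, lipoprotein lipase, showed no such difference, at 180 to 365 CPM (median 233) on the HFHS diet and at 88.5 to 512 CPM (median 227) on chow (log2 0.09 ± 0.39 SE, adjusted p = 0.972 in edgeR). The sign of Lpl turned without rat 101, 111 or 115, without both end rats and with the hepatocyte mean as a covariate. Its wide SE does not show that the diets gave the same level.

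Pik3c2g, which encodes a class II phosphoinositide 3-kinase and was named after its values were seen, was at 3.40 to 10.4 CPM (median 5.71) on the HFHS diet and at 0.547 to 2.53 CPM (median 1.70) on chow. The groups did not overlap. It rose by 1.87 ± 0.39 SE (adjusted p = 0.00655 in DESeq2 and 0.160 in edgeR), and was the single gene that edgeR called with the slow fibre covariate, at 1.80 (adjusted p = 0.00231). Aqp4, the water channel of the fast fibre membrane, was also named after its values were seen. It was at 51.6 to 95.5 CPM against 35.6 to 56.6 CPM on chow and rose by 0.59 ± 0.13 SE (adjusted p = 0.00655 in DESeq2). Among 20 tested p53 targets, 2 were higher (Phlda3 and Plk2) and 3 lower (Cdkn1a, Ei24 and Sesn1). Phlda3, which competes with the kinase Akt for membrane lipids, was at 46.7 to 87.4 CPM (median 69.9) on the HFHS diet and at 31.1 to 51.3 CPM (median 39.7) on chow. It rose by 0.77 ± 0.16 SE (adjusted p = 0.000709 in DESeq2), whichever rat was left out. Cdkn1a, the cell cycle inhibitor p21, was at 9.35 to 22.1 CPM against 18.1 to 40.4 CPM on chow and fell by 0.84 on the log2 scale (SE 0.22, adjusted p = 0.00964 in DESeq2, lost without chow rat 111 or 116). Members of this list thus lay on both sides, and its median log2 was 0.06.

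Lower genes were fewer, and Med26, Golga7b and Arrdc2 below were named after their values were seen. Med26, a subunit of the Mediator complex that works with RNA polymerase II, was at 9.78 to 13.0 CPM (median 10.5) on the HFHS diet and at 11.6 to 25.9 CPM (median 18.7) on chow. Only chow rat 111 lay inside the HFHS range. Med26 fell by 0.83 on the log2 scale (SE 0.16, adjusted p = 0.000308 in DESeq2), and passed in edgeR without rat 111 at -0.94 (adjusted p = 0.0115). Leaving out the chow rat nearest the HFHS group favours a pass, so this adds no separate support. Golga7b was at 0.149 to 0.508 CPM against 0.146 to 2.42 CPM on chow, where rat 116 at 0.146 CPM was below every HFHS rat and the other 5 were at 1.45 CPM or more. It fell by 2.14 on the log2 scale (SE 0.47, adjusted p = 0.00267 in DESeq2). Glucocorticoid receptor targets had a median log2 of -0.17, with 5 of 19 tested lower (Ddit4, Klf15, Cebpd, Mt2A and Trim63) and 1 higher (Dusp1). The lower count was 2 or 3 without HFHS rat 101, 102, 103 or 105 or chow rat 116, 8 without rat 106 and 3 without both end rats. Ddit4, an inhibitor of mTORC1 signaling, was at 7.06 to 16.2 CPM (median 9.21) on the HFHS diet and at 9.07 to 66.4 CPM (median 25.5) on chow (log2 -1.47 ± 0.47 SE, adjusted p = 0.129 in DESeq2). Arrdc2, an arrestin-domain gene outside the lists, was at 6.72 to 17.3 CPM against 8.77 to 84.7 CPM on chow and fell by 1.70 on the log2 scale (SE 0.49, adjusted p = 0.0475 in DESeq2, lost without any 1 of 9 rats). In Ddit4, Arrdc2 and Nfkbia the chow rats stood in the same order from high to low, 116, 114, 115, 119, 111 and 112, while the HFHS rats lay together near the low end.

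Lists of protein synthesis and breakdown had medians close to 0. Of 71 tested cytosolic ribosomal protein genes, 8 had a positive log2, 8 were lower at an unadjusted p under 0.05 and 1 (Rpl3) was higher, with a median log2 of -0.06. The lower count ranged from 4 to 12 when 1 rat was left out (4 or 5 without HFHS rat 103 or 106 or chow rat 112, 116 or 119) and was 21 without both end rats. The call of DESeq2 among them was the entry named Rpl8 on chromosome 3, at 4.13 to 4.63 CPM against 5.23 to 6.06 CPM on chow without overlap (log2 -0.39 ± 0.07 SE, adjusted p = 0.00486). Ribosomal protein genes have many near-identical copies, so the source of these few reads is uncertain. Of 32 proteasome genes, 3 had a positive log2, 4 were lower at an unadjusted p under 0.05 and 0 higher, with a median log2 of -0.07, and the lower count was 1 or 2 without HFHS rat 101, 102, 103 or 106 or chow rat 111 or 116. Psmb7, a catalytic subunit, was at 160 to 176 CPM against 173 to 194 CPM on chow and fell by 0.15 on the log2 scale (SE 0.05, adjusted p = 0.0425 in DESeq2, lost when any 1 of 10 rats was left out). Of 55 mitochondrial ribosomal protein genes 2 were lower and 0 higher, and of 31 genes of autophagy and lysosome 1 was lower and 0 higher, each with a median log2 of -0.02. In the mitochondrial core, of 16 tested TCA cycle genes, 14 of the pyruvate dehydrogenase complex and 33 of complex I, 0 reached that level in edgeR and 0 passed in DESeq2, with medians of 0.00, 0.04 and -0.01. Of 37 genes of complexes III to V 1 was lower and 0 higher, with a median of -0.01. Without both end rats, however, 10 genes of complex I and 10 of complexes III to V were lower. The share of all genes lower in that fit is not given here, so these counts have no background to be read against. Of 26 sarcomere genes 0 reached it, with 0 calls in DESeq2, and the median log2 was -0.11.

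Whether males differed from females in their response to the diet was tested as the interaction of sex and diet over all 23 rats, with females grouped by column code. The title and the code of 3 females give opposite diets, and the females' operation and estradiol differ from the males along with sex, so these cannot be told apart here. In edgeR 0 of 13365 genes passed (0%), with 318 at an unadjusted p under 0.05 where HFHS minus chow was higher in males than in females (2.38%) and 334 where it was lower (2.5%). DESeq2 called 1 gene, Golga7b (adjusted p = 0.0439), and limma-voom called 0. In the females fitted alone edgeR called 0 genes. Of the 91 genes called by DESeq2 in males, 60 had the same sign in females (65.9%), against 55.3% of the 12671 genes tested in both sexes.

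In this test the interferon list had the most genes of the 53 lists. Of its 35 genes tested over all rats, 16 were higher in the male difference at an unadjusted p under 0.05 and 0 lower, with a median interaction log2 of 0.62. The median diet difference of the list was 0.37 in males and -0.17 in females. Ifit3 had a log2 of 1.04 in males and -0.49 in females, and the ubiquitin-like gene Isg15 had 0.64 in males and -0.55 in females, with an adjusted p of 0.960 for either interaction in edgeR. The count of 16 fell to 7 with females grouped by title, to 9 without the 3 females with conflicting labels and to 10 at the lowest when 1 rat was left out. Dll4 was also further apart by diet in males, with 0.66 against -0.07 in females, as was Tal1 with 0.53 against -0.02. Both were at an unadjusted interaction p under 0.05 and an adjusted p of 0.960 in edgeR. Ifit3, Dll4 and Tal1 were DESeq2 calls in males, and the interaction test uses the same male counts. That choice favours a small interaction p, so these values are no separate support for a response of males alone. Among the 91 DESeq2 calls in males, 41 had an unadjusted interaction p under 0.05 in edgeR, against 652 of 13365 genes tested. Of the Notch list only Dll4 was higher in the male difference at that level, and 6 genes were with females grouped by title. Collagens had 3 such genes of 21, but 14 with the titles and 10 without the 3 females, so their count depends on how those rats are labelled. The uptake and droplet list had a median of 0.18 in males and 0.34 in females. At an unadjusted p under 0.05, 5 of 26 genes were higher in males and 13 of 26 in females. The share over all genes in the female fit is not given here, so the counts of the sexes cannot be set against each other. The median interaction log2 of the list was -0.12, and 0 of 26 were at an unadjusted interaction p under 0.05 in edgeR, which does not show that the sexes responded alike. Mlycd had a log2 of 0.48 in males and 0.44 in females, Plin5 of 0.77 in males and 0.66 in females, and Phlda3 of 0.77 in males and 0.72 in females. Cyp1a1 was also higher on the HFHS diet in females grouped by column code. The edgeR fit of females alone gave a log2 of 9.22 ± 1.13 SE (unadjusted p = 2.83e-05). The female counts of this gene are not given here, so the size of that ratio cannot be judged. Its difference with females grouped by title is not given either, although 3 of them carry opposite diets there. The unadjusted interaction p of Cyp1a1 in edgeR was 0.104. The glucocorticoid list had medians of -0.17 in males and 0.30 in females, and 5 of 19 were lower in the male difference, 10 with females grouped by title, 8 without the 3 females and 3 to 8 when 1 rat was left out.

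**Figure D5:**
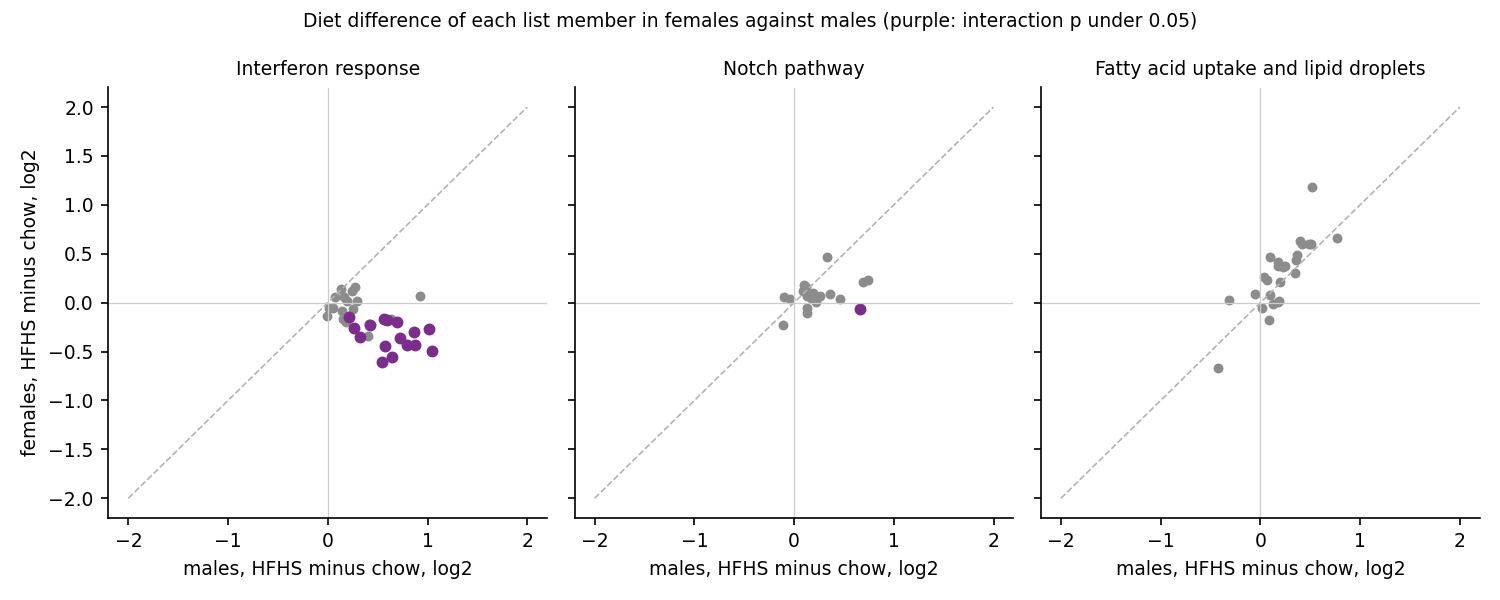
Log2 difference of HFHS minus chow in males (x axis) and in females (y axis) for members of 3 gene lists tested in both sexes, with the line of equal difference dashed and genes at an unadjusted interaction p under 0.05 in purple. Interferon genes lie to the right of 0 and mostly below it (medians 0.37 in males and -0.17 in females), while fat uptake and droplet genes lie along the line or above it (0.18 and 0.34).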

How the data were processed

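Libraries were directional and poly-A selected. The authors used fastp for trimming and STAR 2.7.6a for alignment to rn6, and SeqMonk gave the deposited raw counts, 1 per gene and rat, from reads in exons of merged transcripts, with no normalization. The annotation release and the use of strand in counting are not given in the sources used here. The 16 entries with no gene name (6.57e-05% to 0.000248% of a rat's counts) were dropped, and 129 symbols with several entries were kept as separate genes.

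Males alone were tested with edgeR 4.0.16 in R 4.3.3 (filterByExpr by group, TMM, robust quasi-likelihood test). Adjustment was by the Benjamini and Hochberg method over all genes tested, with a threshold of 0.05. DESeq2 1.42.0, limma-voom with quality weights (limma 3.58.1), RLE size factors, 2 other filters on low counts, the replicate number as a block, a hepatocyte covariate, a model of all 23 rats and leaving out each rat were alternatives. The slow fibre covariate, leaving out both end rats, and the same settings in DESeq2 were added after seeing the data. Libraries came from separate rats.

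Gene lists (53, with 1194 genes, 48 of 1258 entries not found) were described by counts and medians, without a list test. Named genes are those past the threshold in males (up to 15 a direction), the calls of the 23-rat fit, Lpl and, per list, the 4 smallest p or every member where 5 or fewer passed. No gene passed that threshold in edgeR. Other genes were named with their values known, which the text says where a gene outside the lists is described. The members and lists were chosen with earlier results of these data known. Of 72 genes named in the analysis, 55 matched a promoter in the RefSeq table. The pipeline was tested on simulated data.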

Additional observations from a re-analysis of the deposited data

Results flagged for a closer look

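Among 72 genes named, 9 of 144 groups of 6 rats (6.25%) had a value that stood apart from the rest by Dixon's criterion, which chance gives in about 1 in 20 groups. Chow rat 112 was the highest of its group in 5 of them. It had 35.2 CPM of Dll4 against 18.2 to 23.5 in the other chow rats, 22.3 CPM of Nrarp against 11.4 to 13.9, 51.9 CPM of Ets1 against 36.3 to 41.4, 3.22 CPM of Nfkbiz against 1.16 to 1.89 and 3.90 CPM of Icam1 against 2.64 to 2.88. Chow rat 114 had 65.6 CPM of Tie1, above 54.3 to 57.3 in the others, and chow rat 115 had 4.74 CPM of Gbp2, below 6.66 to 7.15. On the HFHS diet rat 105 was the highest in Gpam (45.5 CPM against 30.8 to 35.7) and in Klf15 (38.2 CPM against 30.2 to 33.1).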

How the results depend on the processing

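In edgeR, 0 genes were called higher and 0 lower in males. The higher count became 1 with a mean count above 0.1 (Cyp1a1), 5 with limma-voom, 3 with all 23 rats (Cyp1a1, Cldn5 and Cdc45), 1 with the slow fibre covariate and 62 with DESeq2, and 0 to 10 when 1 rat was left out. The lower count became 2 without both end rats (Med26 and LOC100912917) and 29 with DESeq2, and 0 to 1 when 1 rat was left out. The hepatocyte covariate, RLE size factors and the 1-CPM filter left both at 0. DESeq2's 62 higher calls became 39 without both end rats, 20 with all 23 rats, and 38 to 103 when 1 rat was left out, and its 29 lower calls became 5 with all 23 rats and 12 to 55 when 1 rat was left out. Without chow rat 115 the higher count was 38. The higher count moved beyond 1.5 times for chow rats 112 and 115 and the lower count for HFHS rats 102, 103 and 105 and chow rats 112, 115 and 116 (18, 12, 19, 55, 17 and 16 calls). The cause was not tested.

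The interaction of sex and diet, 0 in edgeR, became 1 with DESeq2, 5 with female diets by sample title (Cercam, Tal1, Nrip1, Dpt and Evc) and 0 to 1 when 1 rat was left out (Golga7b without female chow replicate 5).

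The numbers of the sample titles did not pair the males, since same-numbered rats correlated by -0.30 to 0.00 after their group means were removed. With the replicate number as a block edgeR still called 0 genes in males and 0 for the interaction, DESeq2 called 38 higher and 10 lower, and the lower genes at an unadjusted p under 0.05 became 261, with 2 of 71 cytosolic ribosomal protein genes and 1 of 32 proteasome genes among them.

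Lpl (0.09) became -0.31 with the hepatocyte covariate, -0.21 without both end rats, -0.035 without rat 101, -0.077 without rat 111 and -0.056 without rat 115, and ranged from -0.077 to 0.47 over all rats left out in turn. Myh7 (-0.03) became 0.18 with limma-voom, 0.29 with the block, 0.028 with the slow fibre covariate, and -0.28 to 0.37 when 1 rat was left out, positive without rat 103, 104, 106, 112 or 119. No scaling moved the median of all genes by over 0.1. Low counts limit Cyp1a1, S1pr4 and Golga7b, and p values measure the spread between these 12 rats.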
